A study of Mus musculus with 69 samples.

Results

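Renal gene expression at the end of the rest phase was compared with that at the end of the active phase in mice with lupus nephritis. The comparison rests on the libraries labelled nephritis at Zeitgeber time 8 (ZT8, 4 libraries) and ZT20 (3 libraries), 7 of the 69 in the series. NZB/W F1 mice, a hybrid of the NZB and NZW strains, develop lupus spontaneously. All libraries came from females. Nephritic mice were 30 to 45 weeks old with proteinuria above 300 mg/dl, and the young controls at the same times were 12 weeks old without nephritis (4 libraries at ZT8 and 4 at ZT20). Lights went on at ZT0 and off at ZT12, so ZT8 falls late in the light and ZT20 late in the dark. No treatment is named for these groups. Disease and age changed together between nephritic and young mice and cannot be told apart. RNA was taken from whole perfused kidneys, so fewer cells of a type and less RNA per cell cannot be told apart in any value given here.

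The mammalian clock is a loop of transcription factors. BMAL1 (Arntl) pairs with CLOCK or NPAS2 and switches on the Per, Cry and Nr1d genes through E-box sequences, and the PER and CRY proteins then hold the pair back. The NR1D (REV-ERB) and ROR nuclear receptors set the level of Arntl from a second arm, and the factors DBP, TEF, HLF and NFIL3 carry time to output genes through D-box sequences. In the kidney this clock is known to time sodium transport, metabolism and hormone responses.

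Levels are CPM, the counts of a gene scaled to the same total in every library, after TMM scaling. Values by library follow the order RX7LU, RX100, RX10RU and RX12RL for ZT8 and RX110, RX90 and RX8LU for ZT20, the names the labels give these samples. A gene is called where edgeR's quasi-likelihood test gave a Benjamini-Hochberg adjusted p of at most 0.05. Changes are log2 ratios of ZT8 to ZT20 ± SE, so that a positive change is a higher level at ZT8.

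The 7 libraries held 29372601 to 48075977 counted reads. They carried the segment markers of kidney, among them Kap of the proximal tubule at 7640 to 13000 CPM and Umod of the thick ascending limb at 2940 to 4900 CPM, while 5 globin genes were listed at 0 in all of them. Libraries stood apart from their groups in 3 ways that touch the results below. First, RX10RU, labelled ZT8, did not resemble the other ZT8 libraries in clock genes. Over the 23 clock loop and output genes its root mean square distance was 1.67 log2 units from the mean of the other ZT8 libraries. It was 0.723 from nephritic ZT0, 0.796 from ZT4, 1.24 from ZT12, 1.01 from ZT16 and 1.34 from ZT20. Every other time thus lay nearer to RX10RU than ZT8 did. Each of the other 6 nephritic libraries lay nearest to its own labelled time, as did all 8 young ones.

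Second, RX8LU lay between RX110 and RX90 in 70.4% of 4986 well counted genes, against a median of 35.9% and a highest value of 69.3% over the 366 other combinations of libraries within groups. It lay near a mixture of the pair with weights of 0.746 and 0.254, and its squared distance from that mixture was a median of 2.32 times the counting noise. Whether RX8LU is a sample of its own was not tested further. The numbers of calls, named gene changes, list medians and marker list levels were also computed without it. The counts of genes without overlap, the split by length and the calls shared with young kidney were computed only with it. Last, the difference between the phases moved with transcript length. The median change was 0.145 in the shortest quintile of genes by transcript length and -0.148 in the longest. By library, the shortest quintile lay a median of 0.0635 to 0.151 log2 units above the gene means at ZT8, and -0.106, 0.0205 and -0.0643 from them in RX110, RX90 and RX8LU.

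In all, 293 of 16872 genes tested were called (1.74%), 141 higher at ZT8 (0.836%) and 152 higher at ZT20 (0.901%). At an unadjusted p under 0.05 there were 3017 genes (17.9%), and the median change of all genes was -0.03. DESeq2, with its own scaling, gave 910 calls, 532 higher at ZT8 and 378 higher at ZT20. Among the calls 67 changed at least 2-fold, 13 of them higher at ZT8 and 54 higher at ZT20. The number rested on single libraries. It was 25 without RX7LU, 117 without RX10RU, 27 without RX12RL, 4 without RX110 and 9 without RX8LU, while it was 228 without RX100 and 392 without RX90. All 293 genes kept their direction when any of the 7 libraries was left out. The genes called in each of these 7 fits were Cry1, Nfil3, Leo1 and Acta1, and 35 were called in none.

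**Figure D1:**
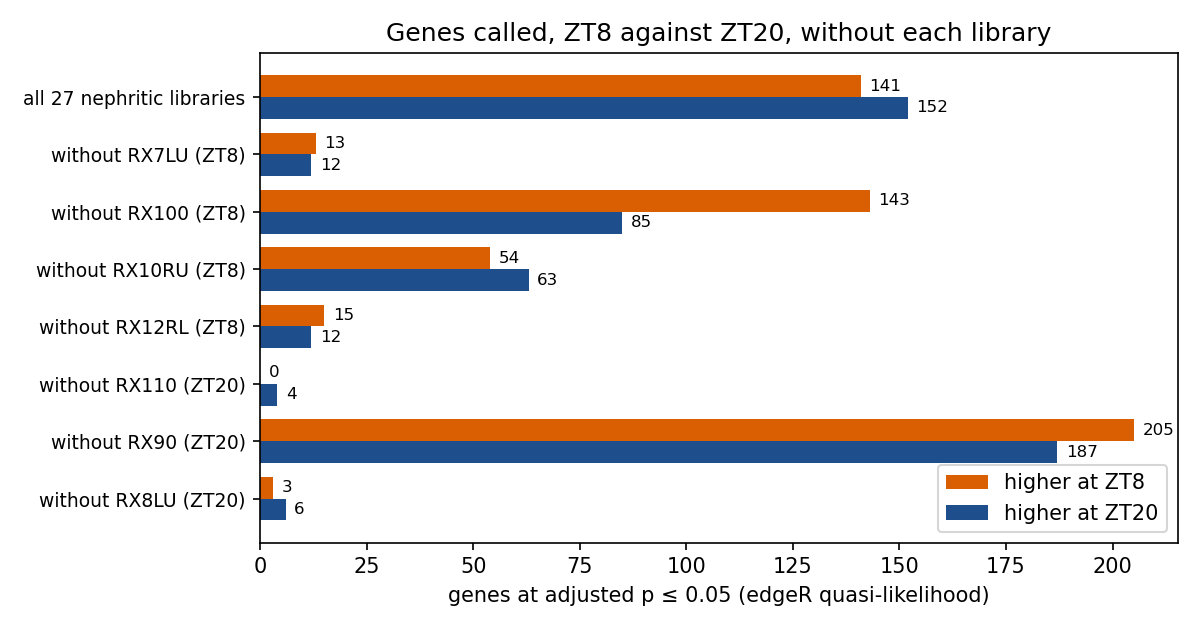
Number of genes called between nephritic ZT8 and ZT20 kidneys (x axis) with all 27 nephritic libraries in the fit and without each of the 7 libraries in turn (y axis), for genes higher at ZT8 (orange) and higher at ZT20 (blue). The count fell from 293 to 4 without RX110 and to 9 without RX8LU, and rose to 392 without RX90.

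Calls were split by transcript length. Genes higher at ZT8 had a median length of 1773 bases and those higher at ZT20 a median of 4570 bases, against 3175 bases for all genes tested. In the shortest quintile of genes 71 were called higher at ZT8 and 12 higher at ZT20, and in the longest quintile 2 and 62. With a smooth dependence on length and GC content removed from each library there were 176 calls, 124 higher at ZT8 and 52 higher at ZT20, in place of 141 and 152. Of the original calls 85 of the 141 and 49 of the 152 were still called, and all 293 kept their sign. Calls in young kidney leaned the same way, with medians of 2642 bases for genes higher at ZT8 and 4046 bases for genes higher at ZT20.

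Of the 15 clock loop genes, 2 were called higher at ZT8 and 4 higher at ZT20 in nephritic kidney, where 0.836% and 0.901% of all genes were called in those directions. The median change of the 15 was -0.31. Between 1 and 8 of the 15 were called when single libraries were left out, 1 without RX110, 3 without RX7LU, RX12RL or RX8LU, and 8 without RX10RU. In young kidney 7 and 5 were called, beside 11.4% and 11.3% of all genes. Of the 8 output genes 1 was called in each direction in nephritic kidney, with a median change of 0.07, and 6 and 1 in young kidney.

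RefSeq promoter entries (build GRCm38.p6) were matched for 19 of these 23 genes, and for 7 of the 8 that were called. The 250 bases before each start were searched on both strands for the E-box CACGTG, held by 6.02% of 32851 promoters, the D-box TTATGTAA, held by 0.819%, and the receptor half-site AGGTCA, held by 14% of them. The promoters of 3 called genes are shown because each holds one of these motifs at the start of the gene. They belong to a repressor of the loop that was higher at ZT20 (Cry1), a receptor that was higher at ZT8 (Nr1d2) and an output repressor that was higher at ZT20 (Nfil3). All are on the minus strand at chr10:85185055-85185304, chr14:18239107-18239356 and chr13:52981040-52981289. Capitals mark the motif, on either strand.
Cry1: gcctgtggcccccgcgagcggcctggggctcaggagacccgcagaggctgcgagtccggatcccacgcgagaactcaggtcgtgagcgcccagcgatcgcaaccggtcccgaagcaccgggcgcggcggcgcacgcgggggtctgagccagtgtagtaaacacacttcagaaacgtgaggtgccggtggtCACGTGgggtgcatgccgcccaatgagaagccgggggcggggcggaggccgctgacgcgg
Nr1d2: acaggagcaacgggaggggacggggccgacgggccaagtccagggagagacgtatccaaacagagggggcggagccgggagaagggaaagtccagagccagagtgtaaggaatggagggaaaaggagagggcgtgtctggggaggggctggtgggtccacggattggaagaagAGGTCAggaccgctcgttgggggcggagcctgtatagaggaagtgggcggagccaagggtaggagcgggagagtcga
Nfil3: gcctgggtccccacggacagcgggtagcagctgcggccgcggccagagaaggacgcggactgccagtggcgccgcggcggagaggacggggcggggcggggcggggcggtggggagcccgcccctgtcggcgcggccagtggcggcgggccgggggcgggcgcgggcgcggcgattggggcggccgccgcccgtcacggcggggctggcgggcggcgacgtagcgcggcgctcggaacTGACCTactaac
The E-box of Cry1 began 60 bases before the start, and the half-sites of Nr1d2 and Nfil3 began 77 and 12 bases before it. None of the motifs was in these windows of Arntl, Nr1d1 and Dbp, and 1 of the 3 Clock starts held a half-site. A motif was thus found for 4 of the 7 called genes with an entry, and it was found for 6 of the 12 genes that were not called, Per1, Per3, Ciart, Bhlhe41, Tef and Nampt.

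The activators Arntl and Clock were called higher at ZT20, though neither in every fit without a library. Arntl measured 2.10, 3.78, 18.3 and 3.08 CPM at ZT8 and 24.3, 33.9 and 25.4 CPM at ZT20. The groups did not overlap, but RX10RU came near the lowest ZT20 library while the other ZT8 libraries were at or under 3.78 CPM. The change was -2.04 ± 0.46 (adjusted p = 0.0303), and it was -3.23 without RX10RU (adjusted p = 4.07e-06). This was the 1 of the 7 fits without a library in which Arntl was called, with an adjusted p of 0.109 without RX8LU and 0.122 without RX110. In nephritic kidney Arntl spanned 18.1 to 33.2 CPM at ZT0 and 9.54 to 11.8 CPM at ZT4. The partner gene Clock was 38.3 to 53.2 CPM at ZT8 and 62.3 to 66.3 CPM at ZT20, a change of -0.55 ± 0.12 (adjusted p = 0.027). Clock was called in 3 of the 7 fits without a library, and it was not called with length and GC content removed (-0.33, adjusted p = 0.107).

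Npas2, which can take the place of Clock, measured 1.41, 2.52, 17.3 and 1.87 CPM at ZT8 and 13.8, 30.0 and 17.4 CPM at ZT20. RX10RU overlapped the ZT20 libraries and the other ZT8 libraries did not. Npas2 was not called (-1.83 ± 0.56, adjusted p = 0.0861). Without RX10RU it was called at -3.41 (adjusted p = 1.56e-05).

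The repressors of the loop differed among themselves. Cry1, a repressor that peaks late, measured 4.86, 4.06, 4.35 and 3.59 CPM at ZT8 and 29.1, 32.6 and 30.2 CPM at ZT20. All 4 ZT8 libraries, RX10RU among them, were far below all 3 at ZT20, and replicates differed little. Its change of -2.88 ± 0.32 (adjusted p = 0.000115) was the one with the smallest p among the genes tested, and it ranged from -2.95 to -2.81 when each library was left out.

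The other repressors were not called. Per3 measured 56.0, 60.1, 11 and 63.2 CPM at ZT8 and 23.1, 20.9 and 23.2 CPM at ZT20. RX10RU was the lowest of all 7 libraries and the other ZT8 libraries were above every ZT20 library. The change of Per3 was 1.07 ± 0.35 (adjusted p = 0.104), and 1.4 without RX10RU (adjusted p = 0.00103). Per2 was 40.6, 35.7, 10 and 36.8 CPM against 54.5, 44.9 and 50.9 CPM (-0.72 ± 0.35, adjusted p = 0.279), with a change of -0.43 without RX10RU (adjusted p = 0.451), whereas in young kidney it was called in the opposite direction (0.73). This difference between nephritic and young kidney was -1.45 ± 0.43 and did not pass the test over all genes (adjusted p = 0.344). Per1 (-0.31), Cry2 (-0.31), Bhlhe40 (0.15) and Bhlhe41 (0.57) were not called, nor was Ciart, a repressor of the CLOCK pair, at 1.87 ± 0.54 (adjusted p = 0.0708). Without RX10RU Ciart was called at 2.24 (adjusted p = 0.00986).

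Both REV-ERB receptors were higher at ZT8. Nr1d1, which represses Arntl, measured 77.9, 84.7, 43.6 and 79.2 CPM at ZT8 and 4.17, 4.37 and 4.24 CPM at ZT20. Even the lowest ZT8 library, RX10RU, was well above every ZT20 library. The change was 4.05 ± 0.62 (adjusted p = 0.00357), which is 71.3 ± 18.7 CPM (SD, n = 4) against 4.26 ± 0.101 CPM (SD, n = 3). Nr1d2 was 130, 150, 65.1 and 147 CPM against 33.1, 32.0 and 37.7 CPM (1.83 ± 0.30, adjusted p = 0.00568).

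Rora, an activating receptor that shares its sites with the REV-ERB receptors, was flat at -0.01 ± 0.19 (adjusted p = 0.986), with 53.1 to 64.4 CPM at ZT8 and 58.8 to 60.7 CPM at ZT20.

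**Figure D2:**
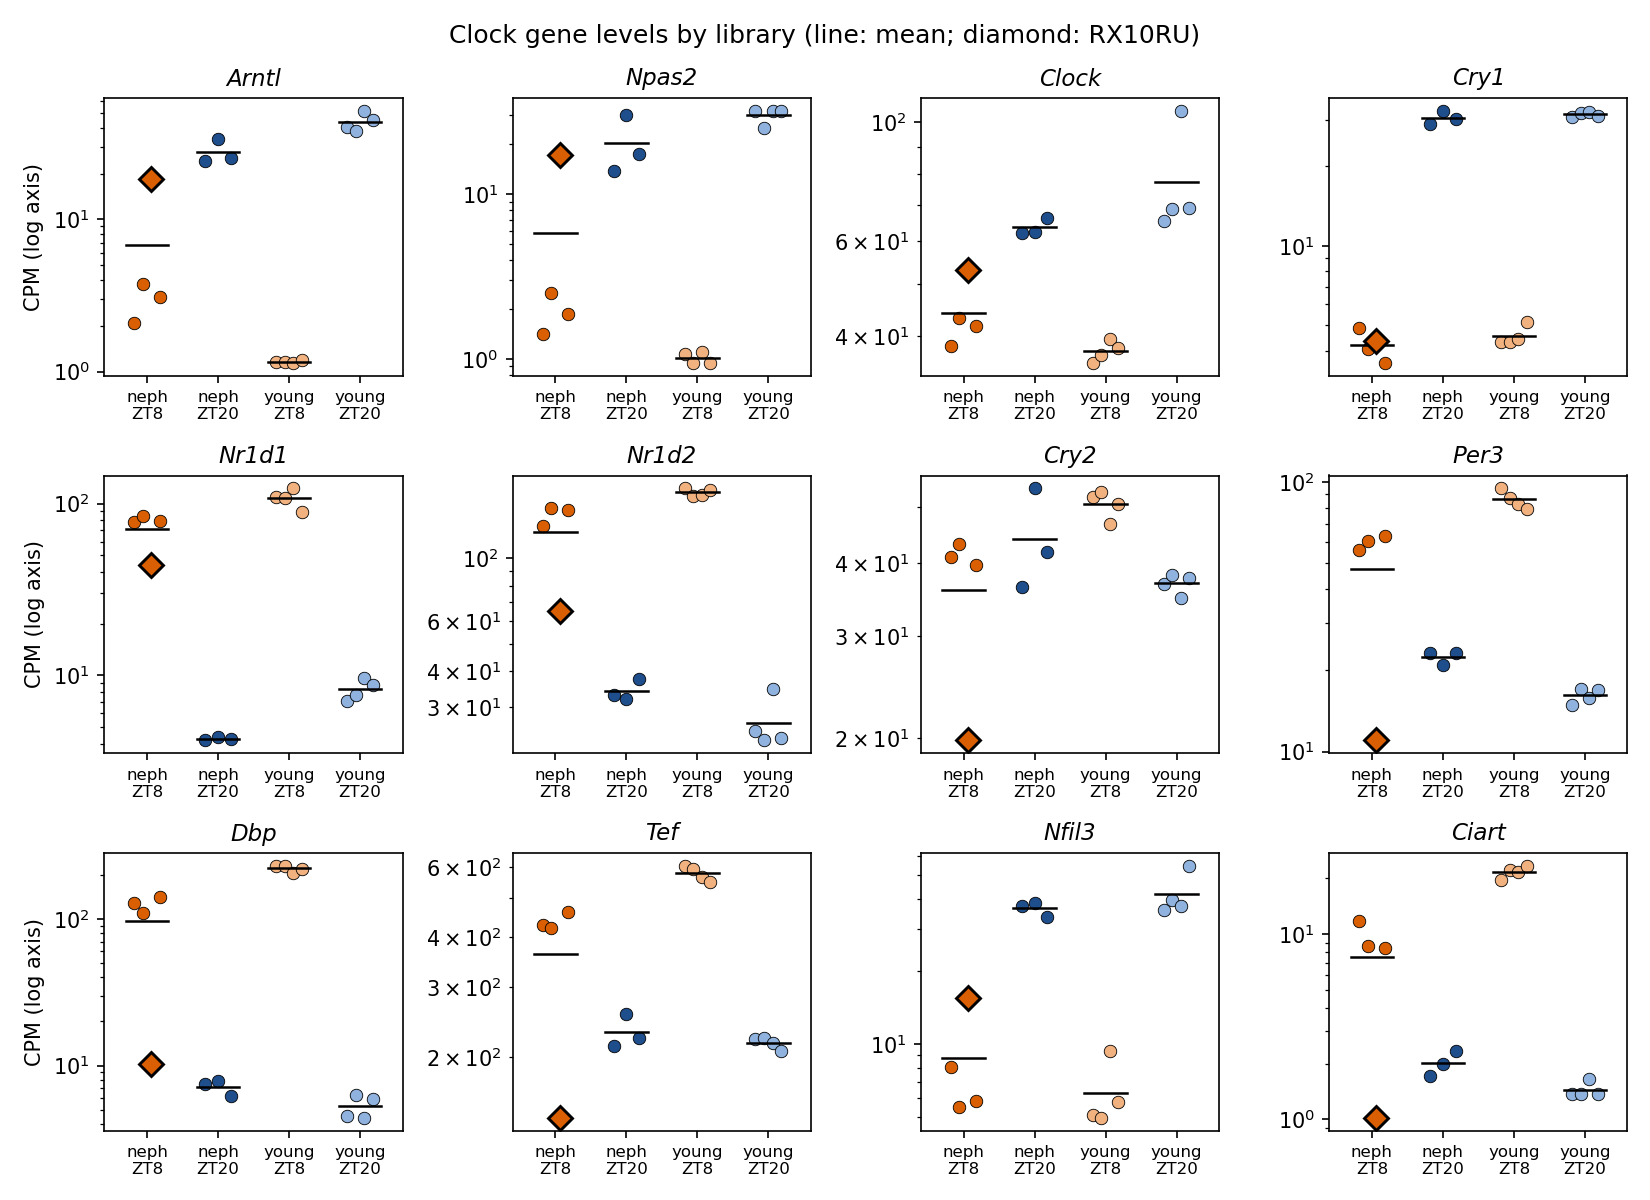
CPM of 12 clock genes by library (y axes, logarithmic) in nephritic (dark) and young (light) kidneys at ZT8 (orange) and ZT20 (blue), with lines at the group means and RX10RU drawn as a diamond. RX10RU sat with the other ZT8 libraries for Cry1 (4.35 CPM) and away from them for Arntl (18.3 CPM), Npas2 (17.3 CPM), Per3 (11 CPM) and Dbp (10.2 CPM).

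Among the outputs, Dbp and Nfil3, which act in opposite ways on D-boxes, were called in opposite directions. Dbp, an activator, measured 128, 110, 10.2 and 142 CPM at ZT8 and 7.49, 7.89 and 6.17 CPM at ZT20. The groups did not overlap, but RX10RU was 10.2 CPM where the other ZT8 libraries were at 110 or more. The change was 3.74 ± 0.59 (adjusted p = 0.00523). In nephritic kidney Dbp spanned 4.04 to 10 CPM at ZT0 and 29.7 to 55.7 CPM at ZT4.

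Nfil3, a repressor, measured 8.10, 5.53, 15.6 and 5.84 CPM at ZT8 and 37.4, 38.3 and 33.5 CPM at ZT20. RX10RU was the highest ZT8 library and still below every ZT20 library. The change was -2.07 ± 0.29 (adjusted p = 0.00142), and Nfil3 was called whichever library was left out. Tef (0.63), Hlf (0.01), Usp2 (0.06), Wee1 (0.08), Nampt (-0.13) and Por (0.55) were not called in nephritic kidney. Of these 6, all but Nampt were called higher at ZT8 in young kidney. For Tef the level was 429, 421, 141 and 462 CPM at ZT8 and 213, 257 and 224 CPM at ZT20, with RX10RU below all the other libraries. The differences between nephritic and young in these 6 genes ran from -0.91 to -0.11, and none passed the test over all genes.

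**Figure D3:**
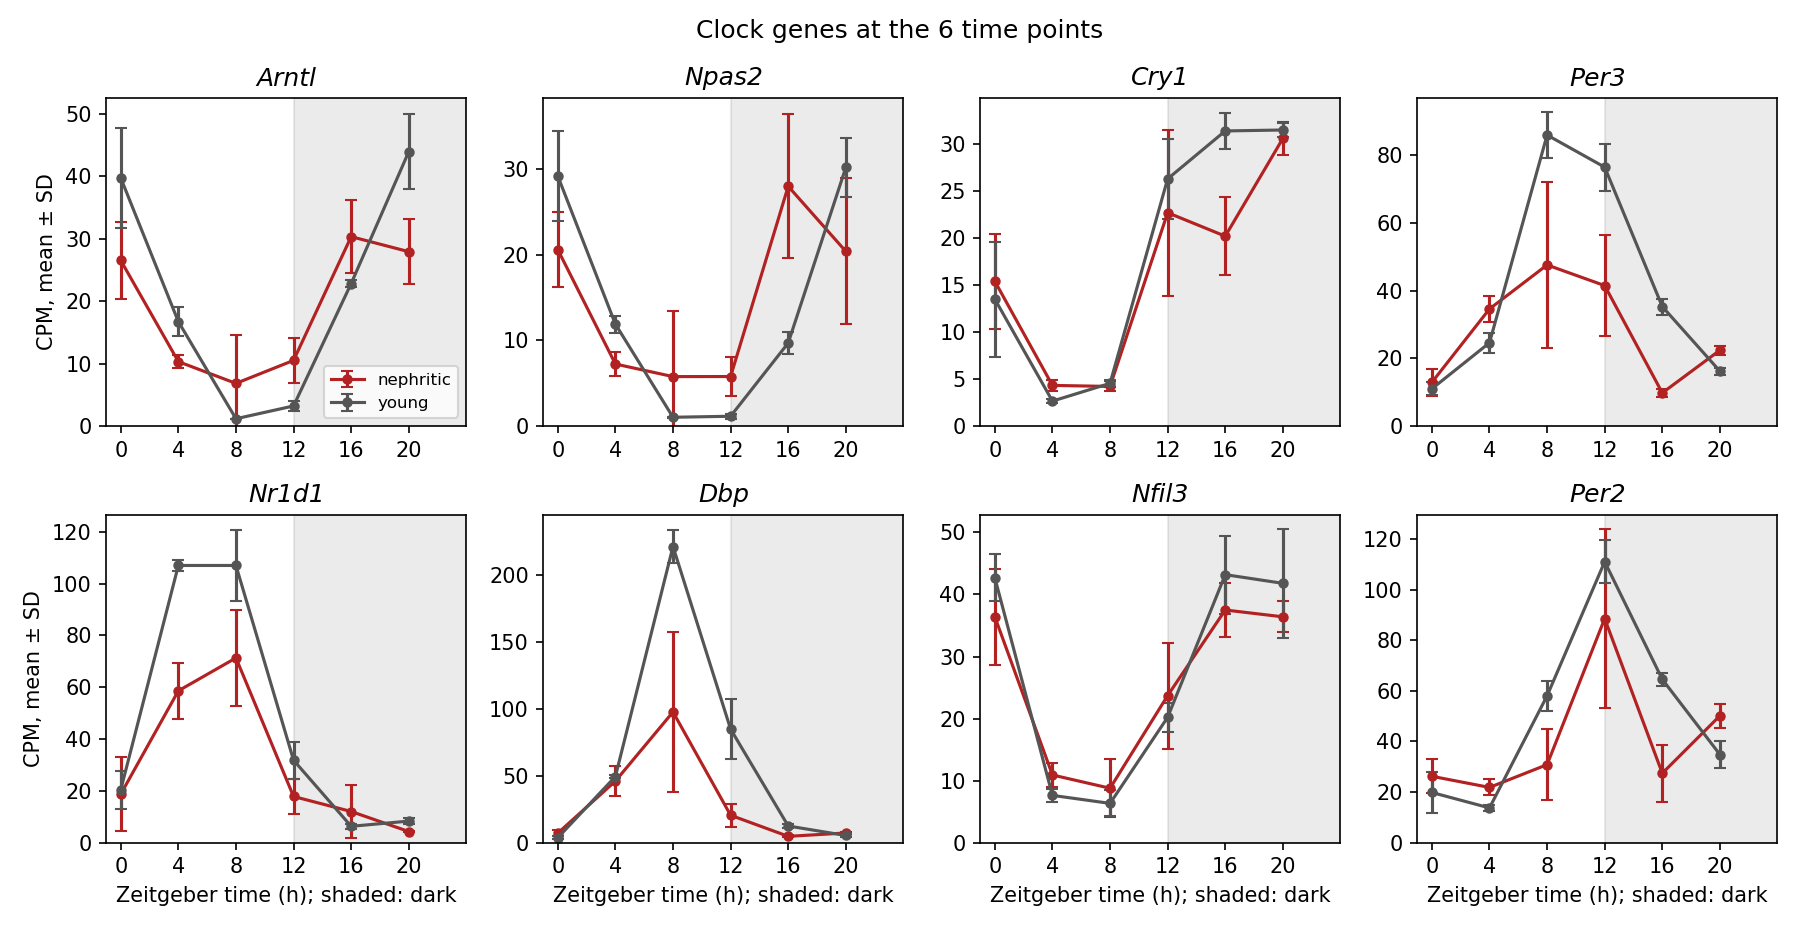
Mean CPM ± SD (y axes) of 8 clock genes at the 6 time points (x axes, Zeitgeber time in hours, dark phase shaded) in nephritic (red) and young (grey) kidneys, with 3 to 7 libraries a point. Cry1 at ZT8 and ZT20 was 4.21 and 30.6 CPM in nephritic kidney, and the wide bars of Arntl and Dbp at nephritic ZT8 reflect the values of RX10RU (18.3 and 10.2 CPM).

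Outside the clock, the calls with the largest changes and at least 1 CPM were read on the same scale. Beside Nr1d1, Dbp and Nr1d2, those higher at ZT8 were Ang, Cym, Gm4952, Pomc, Dusp9, C130036L24Rik and Rnase4. Dusp9, a phosphatase of MAP kinases, measured 26.1, 19.6, 22.8 and 22.4 CPM at ZT8 and 7.94, 11.9 and 8.09 CPM at ZT20 (1.27 ± 0.27, adjusted p = 0.0251). Here RX10RU lay within the other ZT8 libraries, and the groups were far apart. Dusp9 was called in 3 of the 7 fits without a library. The ribonuclease genes Ang (1.63) and Rnase4 (1.14) overlap on chromosome 14, at 51091150 to 51102009 and 51091077 to 51106151 in GRCm38, so the reads of one may have been counted for the other. Pomc, the precursor of several peptide hormones, was 1.51 to 1.68 CPM at ZT8 and 0.622 to 0.677 CPM at ZT20 (1.30 ± 0.31, adjusted p = 0.0349), and it was called in none of the 7 fits without a library. Cym (1.48), Gm4952 (1.33) and C130036L24Rik (1.16) were also low, each under 3 CPM in every library.

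The corresponding genes higher at ZT20, beside Cry1 and Nfil3, included Lep, Actg2, Pnpla3, Hk2, Slco4c1 and Sele. Hk2, a hexokinase, measured 1.31, 3.17, 3.84 and 1.36 CPM at ZT8 and 14.3, 7.75 and 12.7 CPM at ZT20 (-2.28 ± 0.41, adjusted p = 0.00984). The groups were apart by a wide gap, with RX90 the lowest at ZT20, and Hk2 was called in 3 of the 7 fits without a library. Sele (-2.11), an endothelial adhesion molecule, and Slco4c1 (-2.12), an organic anion transporter, were lowest among the ZT20 libraries in RX90, at 0.745 and 0.711 CPM, close to the highest ZT8 values of 0.646 and 0.623 CPM. Actg2 (-3.07), a smooth muscle actin, rested on 2 to 17 reads in each ZT8 library.

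Of the genes called in at least 6 of the 7 fits without a library, 5 are outside the rule for named genes and are given here after their values were seen. Leo1, a subunit of the PAF1 complex that works with RNA polymerase II, was 12.8, 11.1, 17.3 and 11.2 CPM at ZT8 and 23.5, 24.3 and 23.5 CPM at ZT20 (-0.88 ± 0.12, adjusted p = 0.00142). Acta1, the skeletal muscle actin, had 1 to 2 reads in each ZT8 library, 6 in all, and 120 over the ZT20 libraries, a ratio of 24.5 with an exact 95% interval of 11 to 68.2 that covers counting error only. Far2 (-1.02), a fatty acyl-CoA reductase, and Rasl12 (-1.07), a small GTPase, were higher at ZT20. Washc3, of the endosomal WASH complex, was 29.4 to 33.3 CPM at ZT8 and 21.4 to 21.9 CPM at ZT20 (0.51 ± 0.08, adjusted p = 0.00568).

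Genes of fat cells were higher at ZT20. Lep, the adipocyte hormone leptin, measured 0.558, 1.08, 0.796 and 1.07 CPM at ZT8 and 6.92, 13.6 and 9.39 CPM at ZT20 (-3.52 ± 0.83, adjusted p = 0.0349). Every ZT20 library was well above every ZT8 library, but Lep was called in none of the 7 fits without a library. Plin4, of lipid droplets, was 5.81, 13.3, 10.5 and 8.75 CPM against 28.3, 28.4 and 29.6 CPM (-1.60 ± 0.35, adjusted p = 0.0272). Fabp4, which binds fatty acids, was 66.0, 137, 127 and 62.8 CPM against 250, 278 and 264 CPM (-1.44 ± 0.34, adjusted p = 0.0352). Plin4 and Fabp4 were each called in 2 of the 7 fits without a library.

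These 3 were the called members of 11 adipocyte markers, where 0.901% of all genes were called higher at ZT20. All 11 had lower values at ZT8, 10 of them without overlap between the libraries (11.1% of all genes were so). The median change was -1.88. Without RX7LU, RX12RL, RX110 or RX8LU none of the 11 was called. Ucp1, the uncoupling protein of brown fat, named after its values were seen, varied most within ZT8, at 1.28, 20.1, 44.1 and 2.31 CPM against 61.0, 58.8 and 58.0 CPM (-1.82, adjusted p = 0.318). Mean log2 CPM of the list was 2.27, 4.21, 4.09 and 2.92 at ZT8 and 5.38, 5.60 and 5.44 at ZT20 (exact permutation test, two-sided p = 0.0571, which is the smallest that 35 arrangements allow, so no list could reach 0.05; 0.4 when adjusted over the marker lists). Summed over the list the level was 133.2 to 377.2 CPM at ZT8 and 767.2 to 852.0 CPM at ZT20. In young kidney 9 of the 11 were called higher at ZT20 (11.3% of all genes were), with a median of -1.79. Fat around the kidney also carries these genes, and its part in these values was not tested.

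Genes of fatty acid and triglyceride synthesis leaned the same way. Of the 17 on the list, 2 were called, both higher at ZT20, where 0.901% of all genes were called. Lower values at ZT8 were found for 15, and 9 did not overlap (11.1% of all genes were so in this direction). The median change was -0.36. Scd2, a stearoyl-CoA desaturase, measured 168, 145, 123 and 157 CPM at ZT8 and 219, 310 and 229 CPM at ZT20 (-0.79 ± 0.16, adjusted p = 0.0176). Pnpla3, a lipase induced with lipogenesis, was 1.18, 4.24, 3.33 and 1.96 CPM against 18.6, 15 and 16.8 CPM (-2.67 ± 0.59, adjusted p = 0.0272). Of the members not called, 2 are given after their values were seen. Fasn, the fatty acid synthase, was 107, 212, 100 and 113 CPM against 452, 272 and 379 CPM (-1.49, adjusted p = 0.1), and Thrsp was 7.98 to 30.9 CPM against 59.2 to 83.1 CPM (-2.41, adjusted p = 0.0959). Fat cells express these genes too, and their part in these values was not tested. The adipocyte markers were also higher at ZT20. Within ZT8 the mean log2 CPM of the lipogenesis list was 6.239, 6.673, 6.026 and 6.241. For the adipocyte markers it was 2.27, 4.21, 4.09 and 2.92. RX100 was the highest of the ZT8 libraries in both lists, followed in both by RX12RL and then RX7LU. RX10RU was below these libraries for lipogenesis and second to RX100 for the adipocyte markers. Without RX10RU, RX12RL, RX110 or RX8LU no member was called.

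Sgk1, a kinase that corticosteroids induce and that raises sodium uptake in the distal nephron, was the 1 called gene of 16 glucocorticoid targets. It measured 139, 102, 112 and 87.7 CPM at ZT8 and 304, 593 and 372 CPM at ZT20 (-1.96 ± 0.48, adjusted p = 0.037), and it was called in none of the 7 fits without a library. Of the 16, 13 had lower values at ZT8, with a median of -0.34. Of all genes 0.901% were called higher at ZT20, as Sgk1 was. Tsc22d3 and Fkbp5, both induced by glucocorticoids and named after their values were seen, were not called. Tsc22d3 was 32.9 to 58.2 CPM at ZT8 and 82.4 to 136 CPM at ZT20 (-1.28, adjusted p = 0.0815), and Fkbp5 was 34.3 to 63.7 CPM and 84.4 to 121 CPM (-0.89, adjusted p = 0.185). None of the distal sodium transport genes (19, median 0.02), the water channels (8, median near 0), the blood pressure hormones and receptors (21 tested, median -0.05) or the proximal tubule transporters (22, median 0.15) was called.

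Myh11, the myosin heavy chain of smooth muscle, was called higher at ZT20, at 16.5, 15.2, 18.1 and 22.6 CPM against 42.5, 37.6 and 44.6 CPM (-1.22 ± 0.24, adjusted p = 0.0172). It was the only called member of the 7 mesenchymal markers (median -0.52), where 0.901% of all genes were called higher at ZT20. It was called in 4 of the 7 fits without a library.

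Genes for ribosomal proteins and the respiratory chain had higher values at ZT8 with small changes. Of 78 ribosomal protein genes 71 were higher at ZT8, 2 were called in that direction and 1 in the other, with a median of 0.28. Of all genes 0.836% were called higher at ZT8 and 0.901% higher at ZT20. Rps21 was 445, 386, 433 and 419 CPM at ZT8 and 274, 303 and 303 CPM at ZT20 (0.51 ± 0.10, adjusted p = 0.0158), and Rpl22 was 0.39 (adjusted p = 0.0475). Neither was called with length and GC content removed (adjusted p = 0.0737 for Rps21 and 0.0615 for Rpl22). Rpl34, under 1 CPM and with near-identical copies in the genome, was called the other way (-1.25) and its counts are uncertain. Of 99 respiratory chain genes 89 were higher at ZT8 and none was called, with a median of 0.22. These transcripts are short. With length and GC content removed the medians were 0.18 and 0.13, where the median of all genes was 0.02. By library, ribosomal protein genes averaged 7.40, 7.26, 7.54 and 7.42 log2 CPM at ZT8 and 6.96, 7.36 and 7.12 at ZT20, so that RX90 lay among the ZT8 libraries. Without RX90 13 of the 78 were called, in the fit without a library that also gave the most calls over all genes. Without RX7LU, RX12RL, RX110 or RX8LU none of the 78 was called.

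**Figure D4:**
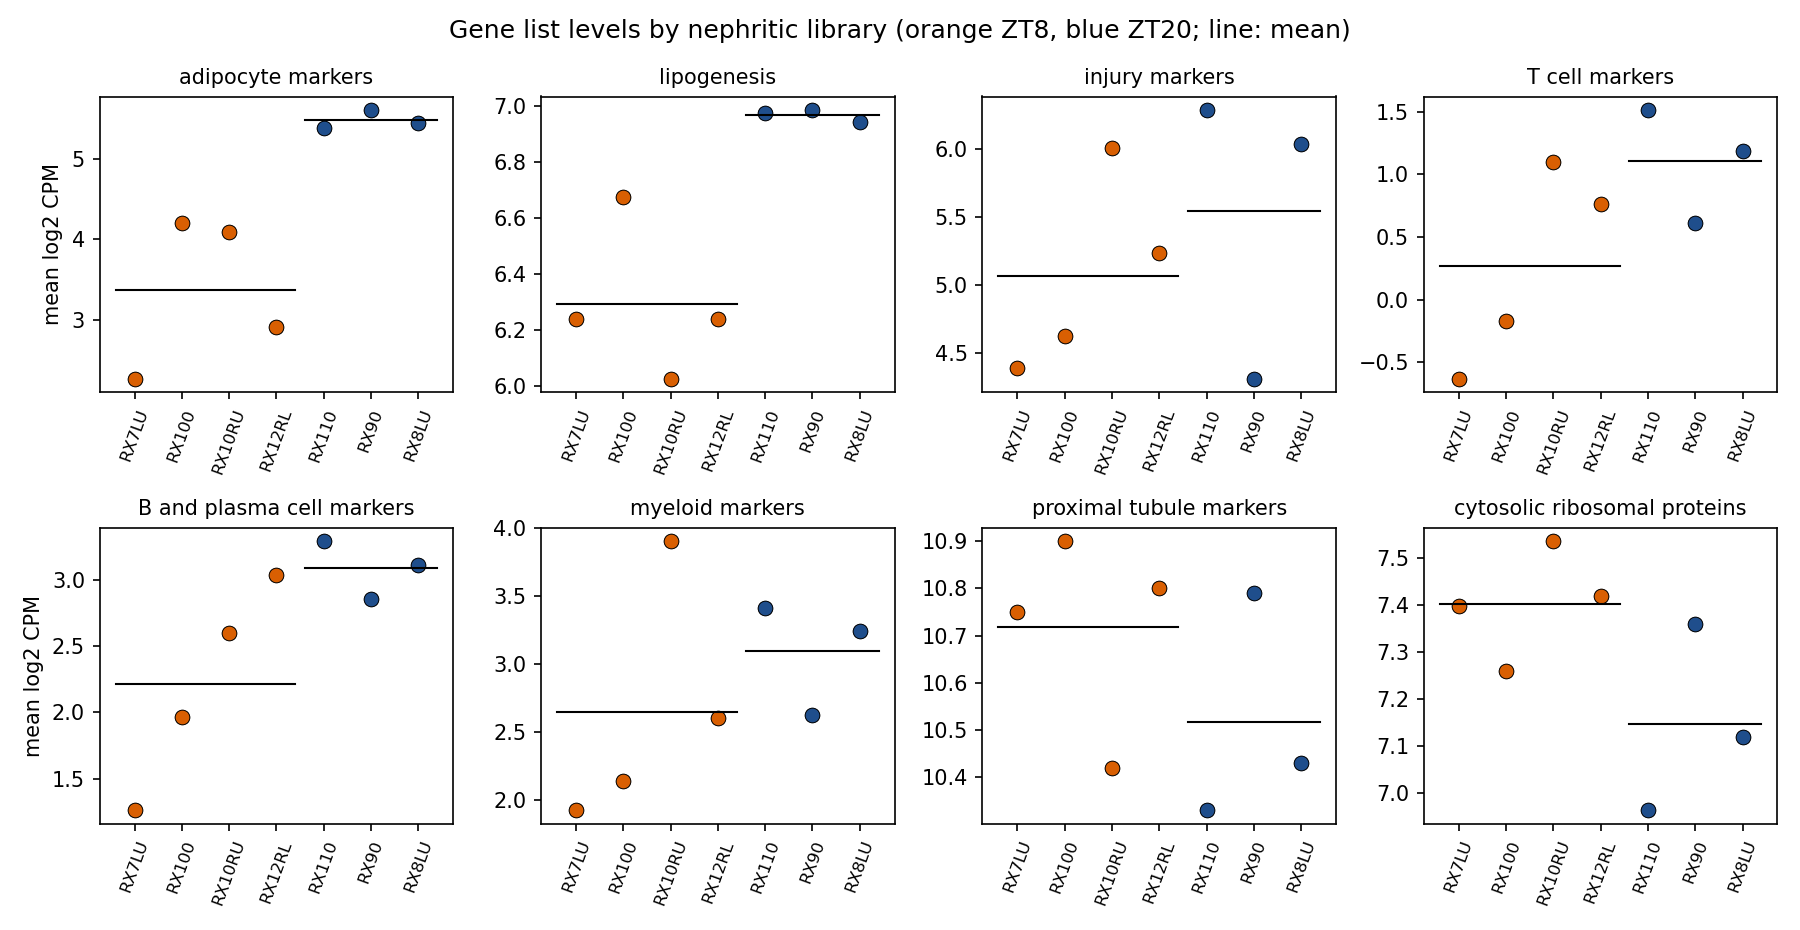
Mean log2 CPM (y axes) of 8 gene lists in each of the 7 nephritic libraries (x axes), ZT8 in orange and ZT20 in blue, with lines at the group means. Adipocyte markers (2.27 to 4.21 against 5.38 to 5.60) and lipogenesis did not overlap between the phases, whereas injury markers were high in RX10RU, RX110 and RX8LU and low in RX90.

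Markers of inflammation and injury were not called in any list, and their values followed libraries as much as phase. Injury markers averaged 4.39, 4.63, 6.00 and 5.24 log2 CPM at ZT8 and 6.28, 4.31 and 6.04 at ZT20 (16 genes, median change -0.44). Spp1, an osteopontin of injured tubules, was 1610, 2000, 6850 and 3980 CPM against 7240, 1490 and 6060 CPM, so that RX90 was the lowest of all. The fitted change was below 0 for all 17 T cell markers (median -0.72) and all 13 markers of B and plasma cells (median -0.81). Only 1 in each list was free of overlap, where 11.1% of all genes were so in this direction. Cd8a, the least changed of the 17 T cell markers, was level at 4.94 ± 1.18 CPM (SD, n = 4) and 4.93 ± 0.669 CPM (SD, n = 3). Lck, another of them, was 1.97, 2.46, 5.86 and 6.17 CPM against 7.82, 4.71 and 7.62 CPM (-0.72, adjusted p = 0.406). Jchain, of secreted antibody, was 13.8, 38.6, 78.0 and 119 CPM against 205, 105 and 192 CPM (-1.44, adjusted p = 0.26). Interferon-stimulated genes (23, median 0.04), complement and antigen presentation genes (19, median -0.08) and myeloid markers (12, median -0.23) held no call. With the mean of Lcn2, Vcam1 and Timp1 as an injury covariate the count of called genes was 891.

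Stress responses were also without calls. Immediate early genes, which handling and waking induce, had lower values at ZT8 in 16 of 20 with a median of -0.65, and 6 of them did not overlap in this direction, as 11.1% of all genes did not. Nr4a1, named after its values were seen, was 87.4, 52.2, 39.2 and 14.6 CPM against 105, 107 and 98.3 CPM (-1.12, adjusted p = 0.232). In young kidney 7 of the 20 were called higher at ZT20, as were 11.3% of all genes. Heat shock genes (18, median -0.04), the unfolded protein response (25, median -0.08), p53 and DNA damage genes (20, median -0.18) and ubiquitin and autophagy genes (18, median 0.07) held none in nephritic kidney. In young kidney 13 genes of the unfolded protein response and 6 of heat shock were called higher at ZT20, beside 11.3% of all genes. Of 35 proteasome genes Psmd11 was called, at 53.9 to 63.0 CPM at ZT8 and 67.8 to 77.2 CPM at ZT20 (-0.36 ± 0.09, adjusted p = 0.0365). It was called in 1 of the 7 fits without a library, and 0.901% of all genes were called in its direction. Of the 35, 29 leaned the other way.

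Metabolic lists other than lipogenesis had medians near 0. Genes of fatty acid oxidation (30, median -0.01), sterol synthesis (25, median -0.02), amino acid and polyamine metabolism (20, median 0.03) and the mitochondrial carriers of the Slc25 family (45, median -0.02) held no call. Hk2 was the 1 called of 17 genes of glucose breakdown and synthesis (median -0.03), where 0.901% of all genes were called higher at ZT20. In young kidney 7 and 10 of the genes of fatty acid oxidation were called higher at ZT8 and at ZT20, and 13 Slc25 genes were called higher at ZT8, where 11.4% and 11.3% of all genes were called in those directions.

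Lists of tissue repair leaned to ZT20 without a call. Of 24 matrix genes 23 had higher values at ZT20 (median -0.31), of which 3 did not overlap, a share near the 11.1% of all genes. Sparc, a matrix protein, was 145, 184, 342 and 191 CPM at ZT8 and 330, 151 and 264 CPM at ZT20, so that RX10RU, RX110 and RX8LU were the highest, as they were for the injury markers. Of 22 genes of cell division 18 had higher values at ZT20 (median -0.40). Medians were -0.42 for 22 chemokines and cytokines and -0.20 for a joint list of 24 NRF2 and detoxification genes. Of the 2 cold-inducible genes, Cirbp was 85.7 to 104 CPM at ZT8 and 59.8 to 72.4 CPM at ZT20 (0.54, adjusted p = 0.163) and Rbm3 overlapped.

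Markers of kidney segments differed little, with medians of 0.17 for 10 proximal tubule, -0.12 for 6 loop and distal tubule, 0.02 for 7 collecting duct, -0.18 for 6 podocyte and -0.19 for 7 endothelial genes, and no call. The 6 lymph node and gut markers tested (median -0.14) held none. Adrenal markers summed to 8.37 to 17.4 CPM over 11 genes in the 7 nephritic libraries (median 0.60), with no call. In young kidney 6 of the 11 were called higher at ZT20 with a median of -6.65, where 11.3% of all genes were called so. Among the adrenal genes named by rule, Star was 151 CPM in 1 young ZT20 library and 5.69 to 6.82 CPM in the other 3, and Akr1b7 was 67.4 CPM in that library and 3.16 to 3.65 CPM in the others. None of the 11 was called in the difference between nephritic and young kidney.

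Young kidney gave 3748 calls of 16521 genes tested (22.7%) in the same contrast with 4 libraries a group, and 5982 genes at an unadjusted p under 0.05 (36.2%). Of the 293 nephritic calls 292 were tested in young kidney, 279 had the same sign there and 168 were also called, all in the same direction. The shared calls were 57.3% of the nephritic ones and 4.48% of the young ones. Their median absolute change was 0.60 in nephritic and 0.48 in young kidney. Over the genes called in young kidney the median was 0.25 in nephritic and 0.41 in young kidney. Both sets were picked by calls in the kidneys compared, so these medians do not show which kidney changed more. Over the genes called in young kidney and tested in both, 3273 of 3720 had the same sign in nephritic kidney. A gene called in young and not in nephritic kidney is not thereby shown to differ, since the difference has its own test.

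**Figure D5:**
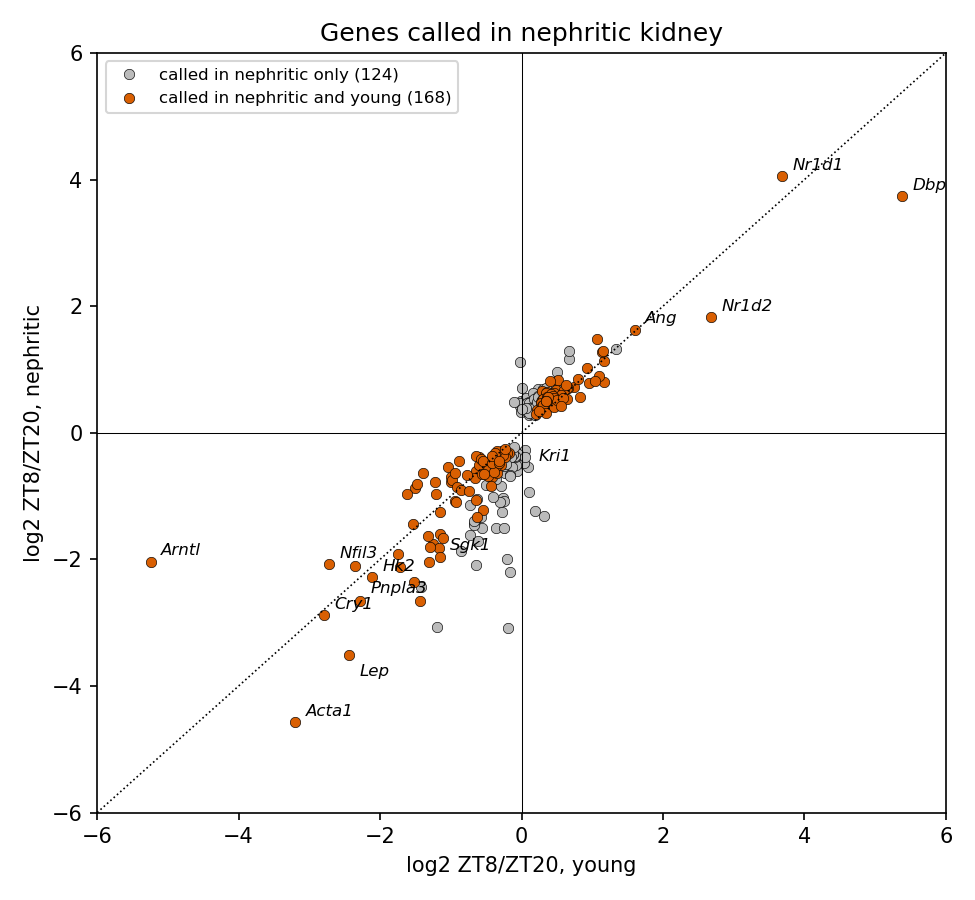
Change between ZT8 and ZT20 (log2) in nephritic (y axis) against young (x axis) kidney for the 292 nephritic calls tested in both, with those also called in young kidney in orange (168) and the others in grey (124), and a dotted line of equal change. Cry1 and Nr1d1 lay near the line at -2.88 and 4.05, and Arntl lay far from it at -2.04 against -5.25.

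The difference between the nephritic and young contrasts was called for 6 of 17521 genes (0.0342%), 2 in the higher (0.0114%) and 4 in the lower direction (0.0228%), with 1128 at an unadjusted p under 0.05 (6.44%). Arntl differed most firmly. Its young levels were 1.14 to 1.19 CPM at ZT8 and 38 to 51.8 CPM at ZT20, so every young library was below the nephritic ones at ZT8 and above them at ZT20. The nephritic minus young difference was 3.20 ± 0.52 (adjusted p = 0.00242). Without RX10RU it was 2.03 (adjusted p = 0.0137). Npas2 differed by 3.06 ± 0.59 (adjusted p = 0.0331), and by 1.5 without RX10RU (adjusted p = 0.349).

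Mlxipl, the carbohydrate response factor ChREBP, measured 130, 158, 140 and 145 CPM at ZT8 and 187, 206 and 184 CPM at ZT20 in nephritic kidney and 190 to 228 CPM at ZT8 and 138 to 171 CPM at ZT20 in young kidney. The order of the phases was thus opposite, with no overlap in either group of mice, and the difference was -0.85 ± 0.18 (adjusted p = 0.0441). The change was called in young kidney (0.41, adjusted p = 0.00396) and not in nephritic kidney (-0.44, adjusted p = 0.0741). Kri1, a nucleolar protein of ribosome assembly, was 13.0 to 15.2 CPM at ZT8 and 19.2 to 20.8 CPM at ZT20 in nephritic kidney and 15.2 to 16.7 CPM and 13.6 to 16.2 CPM in young kidney (difference -0.63 ± 0.12, adjusted p = 0.0331). Cdan1 was 19.5 to 20.7 CPM and 24.7 to 25.4 CPM in nephritic kidney and 23.4 to 26.3 CPM and 21.1 to 23.0 CPM in young kidney (difference -0.52 ± 0.11, adjusted p = 0.0409). The sixth gene, Tnfrsf17 of plasma cells, rested on 1 young ZT8 library at 26.2 CPM where the other 7 young libraries were at 0.0305 to 0.205 CPM. Its difference was -7.02, and -1.55 without that library (adjusted p = 0.903). Without RX10RU Arntl was the only one of the 6 called, and with length and GC content removed the differences of Kri1, Cdan1 and Mlxipl were not called (adjusted p = 0.269, 0.36 and 0.27).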

How the data were processed

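The authors sequenced poly(A) RNA of whole kidneys with 150 bp reads, paired-end per the labels although the study's methods also mention single-ended cycles, and deposited raw read counts per gene symbol for each sample. The study's methods name a Burrows-Wheeler aligner and mm10, keeping unique reads, and the submitters' processing notes name HISAT and mm10. Strand handling and the annotation are not given in the sources used here. Of 24538 symbols 15 had empty cells and were left out. The 12 remission and repeat libraries were not analysed here. Groups came from the labels, and nothing there pairs samples or says beyond the sample names that they are separate animals, so p-values measure the spread between these samples.

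Genes with at least 100 counts over the libraries of a fit were scaled by TMM and tested with edgeR's quasi-likelihood test (edgeR 4.0.16, R 4.3.3), on cell means of the 6 time points with the sequencing set as covariate. All 27 nephritic libraries (30 young, 57 for the difference) shared one estimate of spread. The set was inferred from the prefixes of the sample names (CR, CRS and HIL against the rest). By these names all ZT8 and ZT20 libraries belong to the same set, Set 2. Alternatives used DESeq2 1.42.0 and limma 3.58.1. List levels are means of log2 CPM (prior count 2). Lengths and coordinates came from GENCODE vM21 (GRCm38), with the longest transcript of each gene, and promoters from RefSeq.

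Genes named are the clock lists, the 10 largest calls in each direction with at least 1 CPM and no overlap, up to 4 called members of each other list or its 2 most abundant ones where none was called, and the calls of the difference with at least 1 CPM. Genes named outside this rule are said to be named after their values were seen. The members and lists were chosen with earlier results of these data known. On simulated counts the nephritic fit recovered 36%, 60%, 88% and 100% of genes changed 1.5-, 2-, 4- and 8-fold, with 6 false calls among 16606 unchanged genes. These counts were drawn independently with the fitted spread, and only well counted genes were changed. They lacked the likeness of RX8LU to a mixture, the clock levels of RX10RU and the trend with length. The simulation therefore cannot give the rate of false calls in these data. Some genes that this rule selects are not reported here.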

Additional observations from a re-analysis of the deposited data

Results flagged for a closer look

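In the 4 nephritic ZT8 libraries, the highest or lowest library stood apart by Dixon's 95% criterion for 13 of the 114 named genes, where chance gives about 1 in 20 groups. In 12 of the 13 the library was RX10RU. Among clock and output genes it stood at 18.3 CPM for Arntl, 17.3 CPM for Npas2, 10 CPM for Per2, 11 CPM for Per3, 19.8 CPM for Cry2, 43.6 CPM for Nr1d1, 141 CPM for Tef and 125 CPM for Nampt. Arntl and Npas2 were above and the other 6 below the other ZT8 libraries. Outside the clock RX10RU stood above the others for Psmd11 (63.0 CPM), the myeloid genes Lyz2 (465 CPM) and Csf1r (113 CPM), and Star (7.20 CPM). The remaining value was Tnfrsf17 in RX12RL, at 0.297 CPM.

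The change between ZT8 and ZT20 differed between nephritic and young kidney by the test of the difference for Arntl (3.20), Npas2 (3.06), Kri1 (-0.63), Tnfrsf17 (-7.02), Cdan1 (-0.52) and Mlxipl (-0.85). With limma-voom none of the 6 was called.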

How the results depend on the processing

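The number of nephritic calls was 293. It was 910 with DESeq2, 181 with no filter on low counts, 593 with Set 2 libraries only, 724 with the ZT8 and ZT20 libraries only, 891 with the injury covariate and 19 at an adjusted p of 0.01. It was 4 to 392 without single libraries. RLE scaling gave 296 (170 higher at ZT8, 126 at ZT20) and limma-voom 305. Alternatives chosen after seeing the data gave 176 with length and GC content removed, 82 without the ZT4 libraries, 4 without the ZT4 libraries and RX8LU, 2 with the ZT8 and ZT20 libraries only and RX8LU left out, and 20 without RX10RU and RX8LU. Young calls were 3748, 1784 at an adjusted p of 0.01, 1734 with the ZT8 and ZT20 libraries only, and 2653 to 4114 without single libraries. The 6 calls of the difference became 13 with DESeq2, 0 with limma-voom (1021 at an unadjusted p under 0.05), 2 with no filter, 2 with the ZT8 and ZT20 libraries only, 21 with the injury covariate, 1 at an adjusted p of 0.01, and 1 to 6 without single libraries. The cause of these moves was not tested. The nephritic ZT4 libraries share in the estimate of spread, and RX12LU and RX11RL among them were the closest pair within any group. They differed by a median of 0.059 log2 units, with a median squared difference of 1.97 times the counting noise. Of the values of named genes under all alternatives 1930 kept their call or its absence, 343 no longer passed the threshold, 20 newly passed it, 9 moved beyond their spread and none changed direction while called. Among values called in neither fit there were 111 changes of sign, in 32 named genes. Most of these are counted as kept, so the directions of uncalled genes were not all stable. Of the medians of gene lists 768 stayed within their spread and 30 moved, and of their counts of called members 666 stayed and 132 moved. No marker list level moved by more than its spread with RLE scaling or without single libraries. Leaving out a single library cannot move a level that far by this measure, so those fits do not show that the levels were stable. No paired analysis was possible because the labels carry no replicate numbers that pair samples. With 3 libraries at ZT20, 1 of them close to a mixture of the others, and 36% of simulated 1.5-fold changes recovered, small changes may be missing from the calls.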
